A study of Homo sapiens with 14 samples.

Results

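The 7 mucin genes MUC1, MUC3A, MUC5AC, MUC5B, MUC13, MUC16 and MUC20 were followed by RNA sequencing in 2 human cancer cell lines treated with cell cycle inhibitors. They were taken by gene symbol and are 7 of the 60683 gene identifiers counted in each of 14 libraries. A549, a lung cancer line, was untreated, treated for 10 days with 2 μM palbociclib (an inhibitor of CDK4 and CDK6), with 0.5 μM indisulam (a sulfonamide that brings about degradation of the splicing factor RBM39) or with both drugs, or treated for 7 days with 0.5 μM PF-06873600 (which inhibits CDK4 and CDK6 as well as CDK2). SUM159, a triple negative breast cancer line, was untreated or treated for 7 days with 0.5 μM PF-06873600. Each of the 7 groups had 2 libraries, described in the labels as technical duplicates, so the p-values below measure only the spread between such libraries. When untreated cells were harvested is not given in the sources used here. The libraries held 13060374 to 21149256 counts on genes, and a level of 3 counts, the least taken as detected, lay between 0.142 and 0.230 CPM, the counts scaled by the total of the library.

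Mucins are large glycoproteins whose central repeats carry many O-linked sugar chains. MUC5AC and MUC5B are secreted and form the gel of airway mucus, with MUC5AC made mainly by goblet cells and MUC5B also by submucosal glands. MUC1, MUC3A, MUC13, MUC16 and MUC20 are anchored in the cell membrane, where they cover the cell surface and, through their cytoplasmic tails, take part in signalling.

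In the hg38 annotation, MUC5AC (chr11:1157953-1201138) and MUC5B (chr11:1223066-1262172) are neighbours on the plus strand of chromosome 11. MUC3A lies at chr7:100949534-100968347 and MUC20 at chr3:195720884-195741123, both on the plus strand. MUC1 (chr1:155185824-155192916), MUC13 (chr3:124905442-124953819) and MUC16 (chr19:8848844-9010390) lie on the minus strand. Repeats make part of these genes hard to count with 65-base reads. Of all 65-base windows in the exons, 70.4% in MUC5B, 73.6% in MUC20 and 78.6% in MUC5AC occur at a single place in the genome, against 98.3% to 100% in the other 4 mucins. Reads from the remaining windows map to several places, so counts can miss part of the RNA of the first 3 genes.

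The repeat unit of MUC20 is shown because it is shorter than a read. It is 57 bases long and has 10 exact copies in the exons, the first at chr3:195725165-195725221 on the plus strand of hg38 and the last ending at 195725791.
MUC20 repeat unit: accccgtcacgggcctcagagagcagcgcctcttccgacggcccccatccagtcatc

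The markers of the 2 lines were checked first. In A549, 6 of 6 epithelial markers had a mean of at least 1 CPM, but 1 of 5 lung alveolar markers did (NAPSA), and the surfactant gene SFTPB was under 0.25 CPM in every library. In SUM159, 2 of 6 epithelial markers (KRT8 and KRT18) reached that level, as did 6 of 6 mesenchymal ones. Of 3 breast receptor genes checked in SUM159, the growth factor receptor ERBB2 reached it. The hormone receptor ESR1 was at most 0.662 CPM, and PGR was under 0.25 CPM in every library. Most of the lung alveolar markers and the hormone receptors ESR1 and PGR were thus near 0 in these lines.

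**Figure D1:**
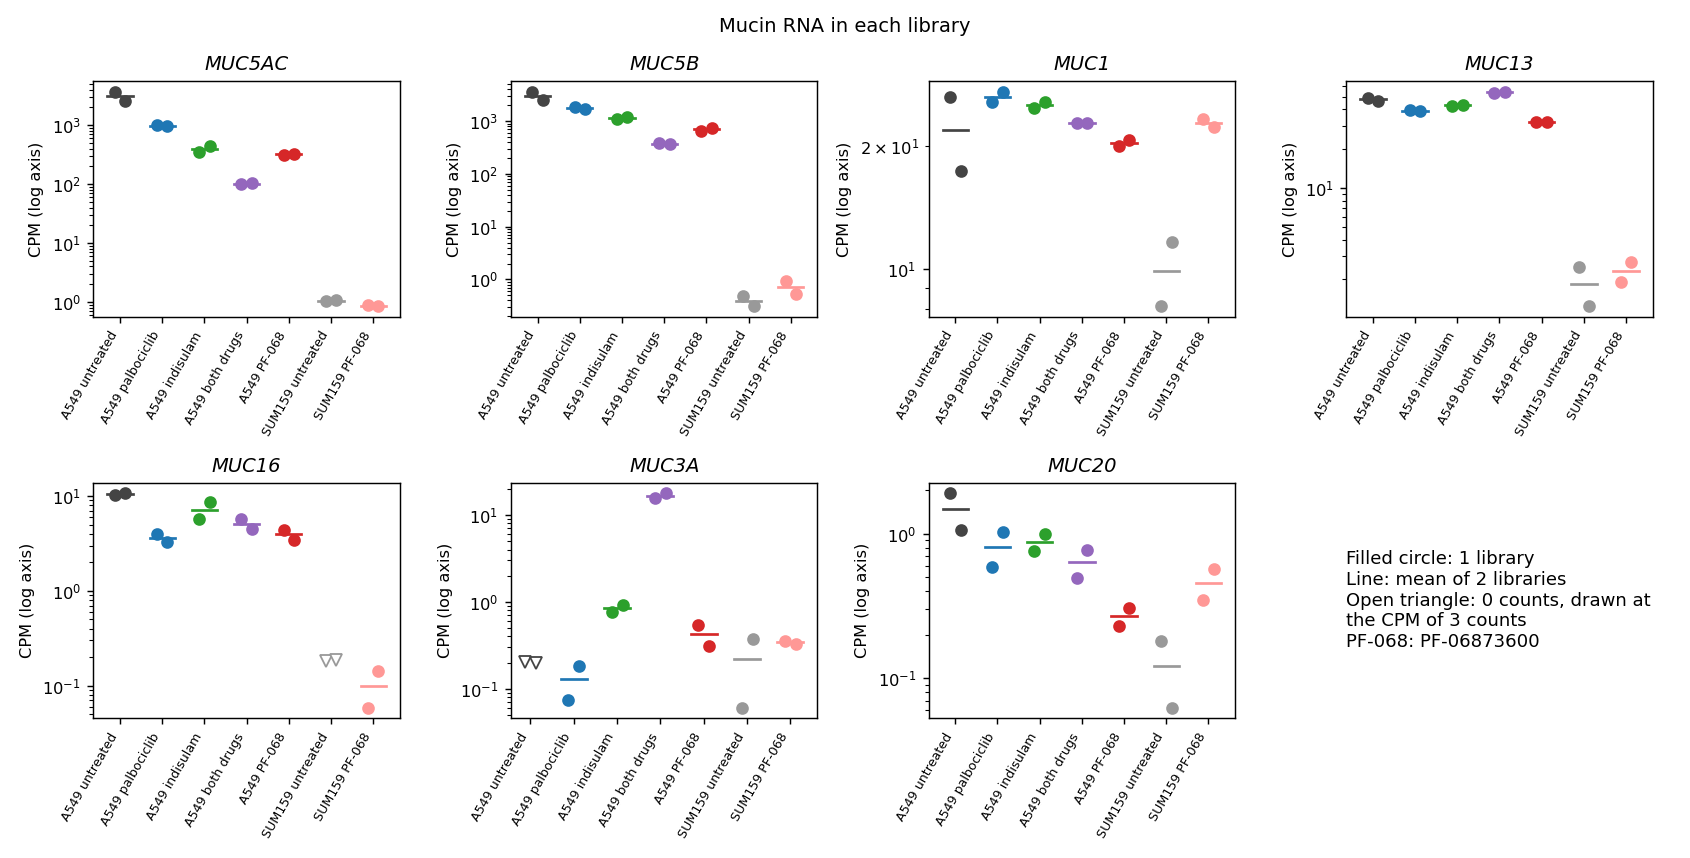
Level of each mucin in CPM (log axis, with its own range in each panel) in the 14 libraries, with the mean of each pair as a line and libraries with 0 counts as open triangles at the level of 3 counts. MUC5AC and MUC5B are high in untreated A549 cells and fall with each treatment, MUC3A stands out with both drugs, and of these 7 mucins MUC1 is the highest by CPM in SUM159.

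The gel-forming mucins had the highest levels of the 7 mucins in untreated A549 cells and fell with every treatment. MUC5AC measured 3693 and 2576 CPM in the untreated libraries, 999 and 973 with palbociclib, 353 and 436 with indisulam, 100.2 and 103 with both drugs, and 312 and 326 with PF-06873600. No 2 groups overlapped, and the order ran from untreated cells down to cells given both drugs. The untreated libraries differed most from each other. By edgeR's quasi-likelihood test, MUC5AC was 3.18-fold lower with palbociclib (log2 fold change -1.67 ± 0.13 (SE), adjusted p = 9.56e-07), 7.95-fold lower with indisulam (-2.99 ± 0.13, adjusted p = 4.46e-10), 30.8-fold lower with both drugs (-4.95 ± 0.15, adjusted p = 1.22e-12) and 9.82-fold lower with PF-06873600 (-3.30 ± 0.14, adjusted p = 7.87e-11). It was also lower with both drugs than with palbociclib alone (-3.28 ± 0.14, adjusted p = 7.26e-11) and with indisulam alone (-1.95 ± 0.13, adjusted p = 3.11e-08). In bulk RNA, fewer cells with a transcript and less of it per cell cannot be told apart.

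MUC5B followed the same order, with smaller changes from untreated cells in each of the 4 treatments. It measured 3621 and 2488 CPM in untreated A549 libraries, 1900 and 1731 with palbociclib, 1095 and 1183 with indisulam, 379 and 364 with both drugs, and 665 and 732 with PF-06873600. The 5 groups did not overlap. MUC5B was 1.68-fold lower with palbociclib (log2 fold change -0.75 ± 0.12, adjusted p = 0.000687), 2.68-fold lower with indisulam (-1.42 ± 0.12, adjusted p = 4.02e-07), 8.22-fold lower with both drugs (-3.04 ± 0.13, adjusted p = 5.48e-11) and 4.37-fold lower with PF-06873600 (-2.13 ± 0.13, adjusted p = 3.41e-09). With both drugs it was lower than with palbociclib (-2.29 ± 0.13, adjusted p = 1.31e-09) and than with indisulam (-1.62 ± 0.13, adjusted p = 1.07e-07). The 2 genes together took 0.731% and 0.506% of all counts in untreated cells, and 0.0479% and 0.0468% with both drugs. In untreated cells, MUC5AC ranked 14 and 31 and MUC5B 15 and 32 among all genes by CPM, but 140 and 217 and 153 and 238 in that order per kilobase of exon. An antisense RNA, MUC5B-AS1, covers 2.33% of the exon bases of MUC5B, and whether counting used the strand is not given in the sources used here.

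The balance of the pair shifted towards MUC5B. Untreated libraries had 1.02 and 1.04 MUC5AC counts per MUC5B count, a ratio taken within a library that does not depend on its depth. The ratio was 0.526 and 0.562 with palbociclib, 0.322 and 0.368 with indisulam, 0.265 and 0.283 with both drugs, and 0.470 and 0.445 with PF-06873600. All 8 treated libraries lay below both untreated ones, and the untreated libraries, which differed in the level of each gene, had nearly the same ratio. The ratio is given as a description, without a test, and an exact permutation test between 2 groups of 2 libraries cannot give a two-sided p below 0.33.

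**Figure D2:**
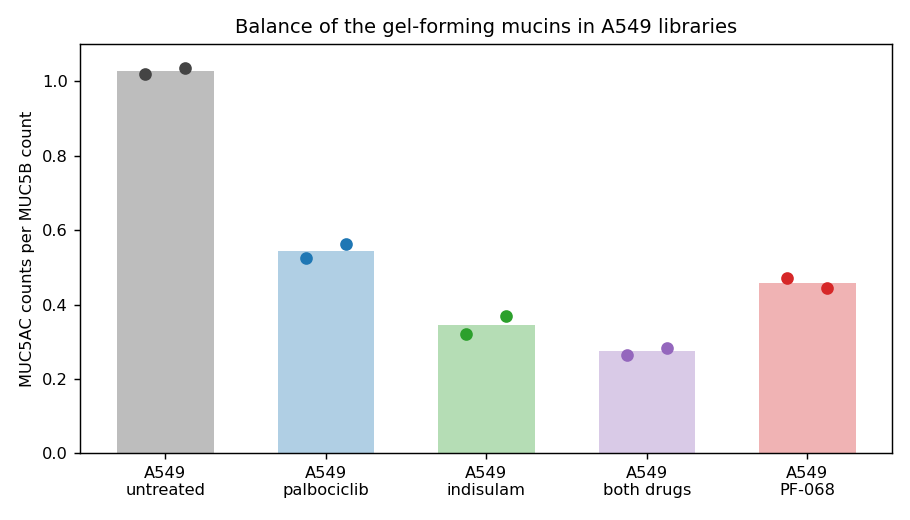
MUC5AC counts per MUC5B count in each A549 library (points) with the mean of each group (bars). The ratio is near 1 in untreated cells (1.02 and 1.04) and lowest with both drugs (0.265 and 0.283).

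MUC3A went the other way. It had 0 and 0 counts in untreated A549 libraries, 1 and 3 with palbociclib, 11 and 14 with indisulam, 221 and 275 with both drugs, and 7 and 5 with PF-06873600. The libraries given both drugs stood far above all others, at 15.7 and 17.7 CPM against at most 0.925 CPM elsewhere. Against a floor of 3 counts per library, MUC3A was at least 82.6-fold higher with both drugs than in untreated cells (adjusted p = 1.65e-10), at least 4.17-fold higher with indisulam (adjusted p = 0.000138) and at least 2.09-fold higher with PF-06873600 (adjusted p = 0.00142). The last of these rests on 12 counts in all, and in a fit of the PF-06873600 and untreated libraries alone MUC3A had too few counts to be tested. No fold is given for palbociclib alone over untreated cells, since both groups lie at or under the floor (adjusted p = 0.0932). With both drugs it was 19.8-fold higher than with indisulam (95% counting interval 13.3 to 30.9, adjusted p = 3.9e-09) and, with 4 counts in all with palbociclib, the ratio of pooled counts to that group was 125 (48.5 to 460, adjusted p = 3.71e-10). These intervals cover counting error only. A gene on the other strand covers 6.49% of the exon bases of MUC3A.

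The promoters of MUC3A, the mucin that rose most with both drugs, and of MUC1, which rose in SUM159, are given as in RefSeq (GRCh38.p14), from 250 bases before to 50 after the start of the gene, 5′ to 3′ on the gene's strand. Promoters of 4 of the 7 mucins were matched by symbol (MUC1, MUC3A, MUC13 and MUC16), and MUC5AC, MUC5B and MUC20 had no entry. Capitals mark GGGCGG and TATAAA, which were searched on both strands. The MUC3A sequence is chr7:100949284-100949583 on the plus strand and the MUC1 sequence chr1:155192866-155193165 on the minus strand.
MUC3A promoter: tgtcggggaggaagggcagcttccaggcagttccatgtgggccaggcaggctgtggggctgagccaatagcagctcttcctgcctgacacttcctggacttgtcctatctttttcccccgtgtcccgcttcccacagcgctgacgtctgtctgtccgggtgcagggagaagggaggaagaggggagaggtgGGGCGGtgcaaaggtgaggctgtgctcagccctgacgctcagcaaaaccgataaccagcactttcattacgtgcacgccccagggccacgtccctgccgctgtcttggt
MUC1 promoter: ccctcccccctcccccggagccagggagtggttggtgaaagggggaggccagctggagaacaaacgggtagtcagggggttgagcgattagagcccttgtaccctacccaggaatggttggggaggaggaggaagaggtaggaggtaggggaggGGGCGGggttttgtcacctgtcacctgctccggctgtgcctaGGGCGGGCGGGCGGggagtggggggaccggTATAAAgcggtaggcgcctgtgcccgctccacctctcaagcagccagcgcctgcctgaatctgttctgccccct

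GGGCGG, the core of the GC box, was found once in the MUC3A window and 4 times in that of MUC1, where 3 of the matches overlap, and occurs in 45.0% of the 35116 promoters in the table. TATAAA was found in the MUC1 window and occurs in 11.5% of all promoters. The AP-1 site TGACTCA, the STAT site TTCNNNGAA, the forkhead core GTAAACA and the E-box CACGTG were searched too, and these letters are in neither window. They occur in 4.95%, 7.66%, 3.42% and 7.26% of promoters in that order. A match of letters is a description and not evidence of binding.

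Some other genes near MUC3A and the gel-forming pair were looked at after their values were seen. Within 200 kb of MUC3A, MUC12, another membrane mucin, went from 0.0333 to 1.42 CPM with both drugs (adjusted p = 4.51e-05). TRIM56 in the same interval measured 63.8 CPM in untreated cells and 64.1 with both drugs (log2 fold change 0.01 ± 0.08, adjusted p = 0.939). Near MUC5AC and MUC5B, the gel-forming MUC2 fell from 1.45 to 0.709 CPM (-1.02 ± 0.35, adjusted p = 0.0198). In the same interval MUC5B-AS1, the antisense RNA of MUC5B, fell from 1.55 to 0.167 CPM (-3.14 ± 0.51, adjusted p = 7.99e-05). Because MUC5B-AS1 overlaps MUC5B, their reads cannot be told apart if counting did not use the strand. TOLLIP (0.36 ± 0.10, adjusted p = 0.00684) and BRSK2 (0.99 ± 0.29, adjusted p = 0.00726) rose, and AP2A2 did not pass the test (-0.12 ± 0.07, adjusted p = 0.161).

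Of the other membrane mucins, MUC13, a mucin of the gut and airway surface, measured 48.9 and 46.6 CPM in untreated A549 libraries, 39.3 and 38.8 with palbociclib, 42.8 and 43.5 with indisulam, 53.8 and 54.6 with both drugs, and 32.2 and 32.3 with PF-06873600. It was thus highest with both drugs and lowest with PF-06873600, with no overlap between groups. It fell with palbociclib (log2 fold change -0.29 ± 0.07, adjusted p = 0.00994) and with PF-06873600 (-0.57 ± 0.07, adjusted p = 7.69e-06), and with indisulam the change was -0.15 ± 0.07 (adjusted p = 0.0934, but 0.0163 with TMM factors). The palbociclib call was lost with DESeq2 (adjusted p = 0.0731), with the 2 groups alone (adjusted p = 0.101) and without palbociclib replicate 1 (-0.30, adjusted p = 0.0544) or 2 (-0.28, adjusted p = 0.0825). With both drugs it rose by 0.18 ± 0.07 (adjusted p = 0.0255), a call that was lost with TMM factors (0.10, adjusted p = 0.220), with DESeq2 (adjusted p = 0.284), with no filter on low counts (adjusted p = 0.103), with the 2 groups alone (adjusted p = 0.0889) and without untreated replicate 2 (0.15, adjusted p = 0.0914) or combination replicate 1 (0.19, adjusted p = 0.073) or 2 (0.17, adjusted p = 0.112). Against each single drug the rise was larger (0.47 ± 0.07 over palbociclib, adjusted p = 2.9e-05, and 0.33 ± 0.07 over indisulam, adjusted p = 0.00106).

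MUC16, the carrier of the tumour marker CA125, fell with every treatment of A549. Untreated libraries had 10.3 and 10.7 CPM, palbociclib libraries 4.01 and 3.29, indisulam libraries 5.74 and 8.66, libraries given both drugs 5.67 and 4.51, and PF-06873600 libraries 4.44 and 3.46. All treated libraries were below the untreated ones, and the indisulam libraries were the farthest apart. The log2 fold change was -1.53 ± 0.21 with palbociclib (adjusted p = 0.000167), -0.54 ± 0.18 with indisulam (adjusted p = 0.0274), -1.05 ± 0.20 with both drugs (adjusted p = 0.00027) and -1.42 ± 0.20 with PF-06873600 (adjusted p = 3.52e-05). The indisulam call was lost with DESeq2 (adjusted p = 0.0727), with the 2 groups alone (adjusted p = 0.0598) and without indisulam replicate 1 (-0.28, adjusted p = 0.287) or untreated replicate 2 (adjusted p = 0.0594).

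MUC20, a mucin known to bind the receptor MET, was low throughout. It had 28 and 16 counts in untreated A549 libraries, 8 and 17 with palbociclib, 11 and 15 with indisulam, 7 and 12 with both drugs, and 3 and 5 with PF-06873600. Untreated libraries were above all others except palbociclib replicate 2 by count, and above all others by CPM. With both drugs and with PF-06873600 the mean was under 10 counts, so MUC20 was tested through libraries in which it is higher. It was lower with both drugs (log2 fold change -1.20 ± 0.42, adjusted p = 0.0207) and with PF-06873600 (-2.40 ± 0.50, adjusted p = 0.000952), where the ratio of pooled counts was 5.41 (95% counting interval 2.52 to 13.3). The former call was lost with DESeq2 (adjusted p = 0.148) and without untreated replicate 1 (-0.73, adjusted p = 0.229) or combination replicate 1 (-0.93, adjusted p = 0.140). MUC20-OT1, on the same strand, covers 27.1% of the exon bases of MUC20, and reads that fall on both genes are not counted.

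MUC1, the mucin found on most epithelia, passed the test in no comparison of treated with untreated A549 cells. It measured 26.4 and 17.3 CPM in the untreated libraries, 25.6 and 27.1 with palbociclib, 24.7 and 25.6 with indisulam, 22.7 and 22.8 with both drugs, and 19.98 and 20.7 with PF-06873600. The untreated libraries span 3 of the 4 treated groups in full and overlap the fourth. The log2 fold changes ran from -0.10 ± 0.14 with PF-06873600 (adjusted p = 0.568) to 0.27 ± 0.14 with palbociclib (adjusted p = 0.215). Which untreated library was kept decided these calls. Without untreated replicate 1, MUC1 was higher with palbociclib (0.61, adjusted p = 0.000369), indisulam (0.54, adjusted p = 0.000376) and both drugs (0.39, adjusted p = 0.00346). Without untreated replicate 2 it was lower with PF-06873600 (-0.37, adjusted p = 0.0038).

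**Figure D3:**
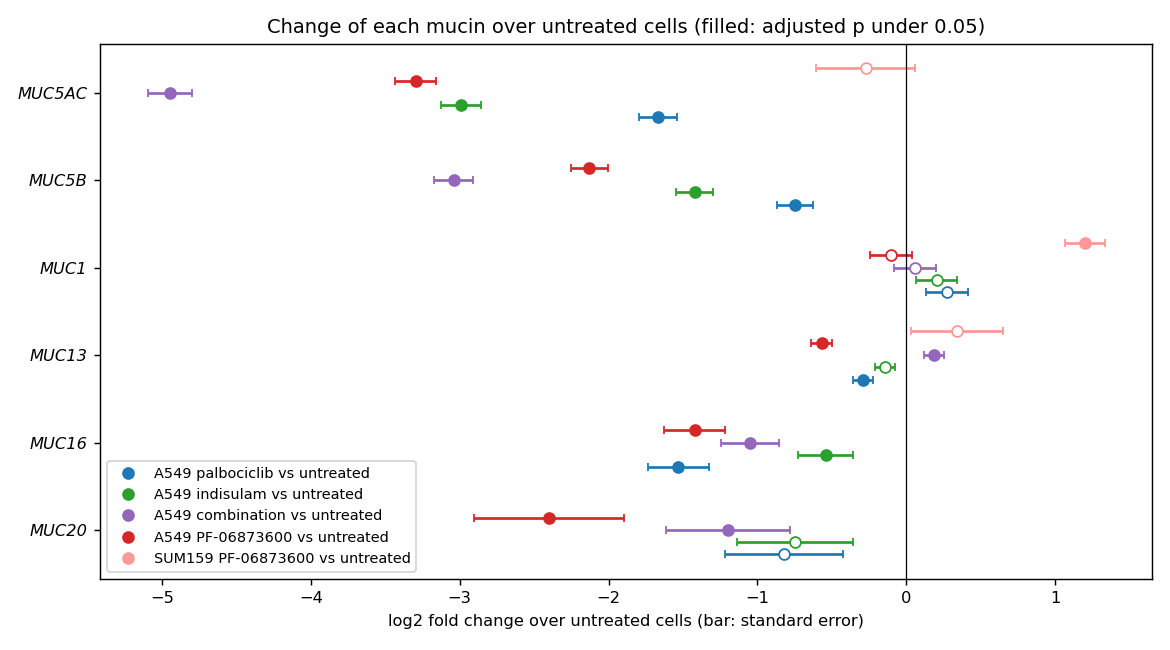
Log2 fold change of 6 mucins over untreated cells of the same line, with standard error bars and filled points for an adjusted p under 0.05 (MUC3A is left out because untreated A549 cells had 0 counts, and the genes shown for SUM159 are those with enough counts to test). MUC5AC and MUC5B fall with all 4 A549 treatments, to -4.95 and -3.04 with both drugs, and MUC1 rises by 1.20 in SUM159.

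All 7 mucins passed the filter on low counts in A549. MUC3A, at 0 counts in untreated libraries, passed only through libraries given indisulam, alone or with palbociclib, in which it is higher. Counted over the 7, 4 fell and 0 rose with palbociclib (MUC5AC, MUC5B, MUC13 and MUC16). Among the 15780 genes tested, 15.7% passed in that comparison, 8.30% higher and 7.40% lower. With indisulam 3 mucins fell and 1 rose, where 45.5% of all genes passed (28.0% higher, 17.5% lower). With both drugs 4 fell and 2 rose, where 65.2% passed (35.1% higher, 30.0% lower, an order that turned with TMM factors, to 4908 genes higher and 5397 lower). With PF-06873600 5 fell and 1 rose, where 56.3% passed (28.5% higher, 27.8% lower). MUC3A was the mucin that rose with indisulam and with PF-06873600, and 1 of the 2 with both drugs. These counts are thus no support for a rise of the mucins. MUC20, among those that fell with both drugs and with PF-06873600, had a mean under 10 counts there. It was tested through libraries in which it is higher. The median log2 fold change of the 7 mucins was -0.75, -0.54, -1.05 and -1.42 in the 4 comparisons in that order, and that of all genes was -0.01, 0.08, 0.05 and -0.01. Between both drugs and palbociclib alone 2 mucins were higher, MUC3A among them, and 2 lower, and the same numbers held against indisulam alone. There 60.4% (33.5% higher, 26.9% lower) and 46.0% (22.0% higher, 23.9% lower) of genes passed. PF-06873600 was given for 7 days and the other drugs for 10, so their values stand side by side without a test between them.

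Whether both drugs together changed a mucin by more than the sum of their separate log2 changes was tested with an interaction term. MUC5B fell by more than the sum, which was -2.17 against -3.04 observed (difference -0.87 ± 0.17, adjusted p = 0.00185). MUC5AC changed by -4.95 against a sum of -4.66, and the difference of -0.29 ± 0.18 did not pass (adjusted p = 0.281). It did pass without untreated replicate 1 (-0.57, adjusted p = 0.000397) and with no filter on low counts (adjusted p = 0.00432). MUC13 was above the sum (0.62 ± 0.10, adjusted p = 0.000251), and so was MUC16 (1.02 ± 0.30, adjusted p = 0.02), which fell by less than palbociclib and indisulam added together. The MUC16 call was lost with DESeq2 (adjusted p = 0.0557) and without palbociclib replicate 2 (0.88, adjusted p = 0.0891), indisulam replicate 1 (0.76, adjusted p = 0.0699) or combination replicate 1 (0.85, adjusted p = 0.112). MUC1 (-0.42 ± 0.20, adjusted p = 0.142) and MUC20 (0.37 ± 0.62, adjusted p = 0.716) did not pass, but MUC1 did without untreated replicate 1 (-0.75, adjusted p = 0.00026). For MUC3A, at 0 counts in untreated cells, a sum of log2 changes has no firm base, and the plain levels were 0.129 CPM with palbociclib, 0.843 with indisulam and 16.7 ± 1.43 (SD, n = 2) with both. In this comparison 25.2% of genes passed (10.7% above the sum, 14.5% below), and 2 mucins were above and 1 below.

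**Figure D4:**
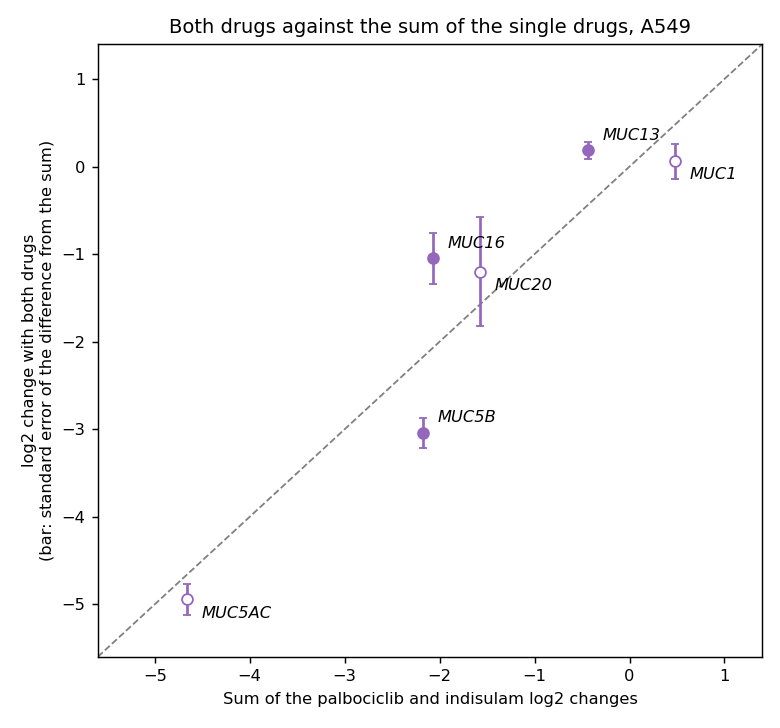
Log2 change with both drugs (vertical axis, with the standard error of the difference from the sum) against the sum of the changes with palbociclib and with indisulam (horizontal axis) for 6 mucins in A549, with filled points for an adjusted p under 0.05 and a dashed line where the 2 are equal. MUC5B lies below the line by 0.87, MUC16 above it by 1.02 and MUC13 above it by 0.62.

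Levels of different genes were set side by side per kilobase of exon. Untreated cells had 180 CPM per kilobase of MUC5AC, 164 of MUC5B, 13.7 of MUC13, 9.10 of MUC1, 0.238 of MUC16, 0.217 of MUC20 and 0 of MUC3A. With both drugs the levels were 19.98 for MUC5B, 15.5 for MUC13, 9.47 for MUC1, 5.83 for MUC5AC, 1.46 for MUC3A, 0.115 for MUC16 and 0.0928 for MUC20. Reads from repeats are missed in MUC5AC, MUC5B and MUC20, so the levels were also divided by the length of the windows that occur at a single place. On that scale untreated cells had 229 CPM per kilobase of MUC5AC and 233 of MUC5B, and 0.239 of MUC16 and 0.295 of MUC20, so neither of these pairs has a firm order. With both drugs that scale gave 28.4 for MUC5B, 15.5 for MUC13, 9.64 for MUC1, 7.42 for MUC5AC, 1.48 for MUC3A, 0.126 for MUC20 and 0.116 for MUC16. On both scales MUC5AC went from above MUC13 and MUC1 to below them, and MUC3A from below MUC16 and MUC20 to above them.

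In SUM159 cells MUC1 was the highest of the 7 mucins by CPM, and 3 of them had enough counts to be tested within this line. MUC1 measured 8.14 and 11.6 CPM in untreated libraries and 23.2 and 22.2 with PF-06873600, without overlap, and was 2.30-fold higher (log2 fold change 1.20 ± 0.13, adjusted p = 9.78e-07). MUC13 measured 2.47 and 1.25 CPM against 1.93 and 2.74 (0.34 ± 0.31, adjusted p = 0.335), and MUC5AC 17 and 17 counts against 15 and 18 (-0.27 ± 0.33, adjusted p = 0.479). The groups overlap for MUC13 and, by count, for MUC5AC. Without untreated replicate 1, MUC13 passed (0.92, adjusted p = 0.0153). In this comparison 73.7% of 15055 genes passed (38.1% higher, 35.6% lower), and 1 of 3 mucins rose and 0 fell.

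The other 4 mucins had at most 16 counts in a library of SUM159. MUC5B had 8 and 5 counts in untreated libraries and 16 and 11 with PF-06873600, a ratio of 1.77 (95% counting interval 0.881 to 3.73). MUC20 had 3 and 1 counts against 6 and 12 (ratio 3.83, 1.26 to 15.6). MUC3A had 1 and 6 against 6 and 7 (ratio 1.58, 0.586 to 4.68), and MUC16 had 0 and 0 against 1 and 3. Of these intervals, that of MUC20 alone lies above 1, and intervals of this kind cover counting error only.

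Before treatment, 6 of the 7 mucins were higher in A549 than in SUM159. MUC5AC was 2978-fold higher in untreated A549 than in untreated SUM159 cells (log2 fold change of SUM159 over A549 -11.54 ± 0.21, adjusted p = 1.68e-19). MUC5B was 7634-fold higher (95% counting interval 4464 to 14337, adjusted p = 1.79e-19), MUC13 25.4-fold (adjusted p = 6.40e-16), MUC1 2.21-fold (adjusted p = 2.99e-06), and MUC16, with 0 counts in untreated SUM159 libraries, at least 56.9-fold (adjusted p = 1.33e-11). MUC20 was 12.1-fold higher by pooled counts (4.39 to 46.2, adjusted p = 1.88e-05). MUC3A had 7 counts in all in untreated SUM159 cells and 0 in A549 (adjusted p = 0.0104), too few for a fold. It was in this model through A549 libraries given indisulam, alone or with palbociclib, could not be tested in the untreated libraries alone, and lost its call without SUM159 untreated replicate 2 (adjusted p = 0.187). Of the 17279 genes tested over both lines, 78.7% passed (41.9% higher in SUM159, 36.8% lower), and 1 mucin was higher and 6 lower. Of the 6, MUC5B, MUC16 and MUC20 had too few counts to be tested within SUM159. They were in this model through A549 libraries, in which they are higher.

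The response to PF-06873600 was compared between the lines by an interaction term, first for the 3 mucins that could be tested within SUM159. For MUC1 the log2 response in SUM159 exceeded that in A549 by 1.30 ± 0.22 (adjusted p = 4.78e-05), and for MUC13 by 0.91 ± 0.26 (adjusted p = 0.00647). The MUC13 call was lost without SUM159 untreated replicate 2 (0.51, adjusted p = 0.111) or SUM159 PF-06873600 replicate 2 (0.61, adjusted p = 0.137). For MUC5AC the difference was 3.02 ± 0.59 (adjusted p = 0.000244), where 33 to 34 counts a group carry the SUM159 side. MUC3A, MUC5B, MUC16 and MUC20 had too few counts to be tested within SUM159 and were in this model through the A549 libraries in which they are higher, so that little can be read from their calls. With them, 6 mucins had a higher response in SUM159 and 1 (MUC3A) a lower one, beside 53.0% of all genes (25.8% higher, 27.2% lower). The calls of MUC3A and MUC16 rest on untreated groups at 0 counts. That of MUC3A was lost without A549 untreated replicate 1 (adjusted p = 0.0596) or 2 (adjusted p = 0.0629) or SUM159 untreated replicate 2 (adjusted p = 0.218). That of MUC16 was lost without SUM159 untreated replicate 1 (adjusted p = 0.0672) or 2 (adjusted p = 0.0633) or SUM159 PF-06873600 replicate 2 (adjusted p = 0.152). Without SUM159 untreated replicate 2, 4 of the 7 passed.

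Among other mucins, 16 of 17 listed genes were found, and 7 were tested in A549. With both drugs 4 were higher and 3 lower, beside 35.1% and 30.0% of all genes. Of the 4, MUC12, MUC19 and MUCL3 had a mean under 10 counts in untreated libraries and were tested only through libraries in which they are high, so the count is no support for a rise of the list. MCAM, a cell adhesion protein counted among the mucins by an older name, rose from 11.6 to 28.9 CPM (1.31 ± 0.10, adjusted p = 2.15e-08), and OVGP1, the oviductal mucin, fell from 15.1 to 6.41 CPM (-1.24 ± 0.14, adjusted p = 2.05e-06). With each drug alone MCAM fell instead (palbociclib -0.37 ± 0.11, adjusted p = 0.0398, and indisulam -0.61 ± 0.12, adjusted p = 0.000659). CD164, the most abundant of the list per kilobase in both lines, was lower with both drugs than with palbociclib alone (-0.54 ± 0.06, adjusted p = 3.70e-06). The membrane mucins MUC12 and MUCL3 and the gel-forming MUC19, named after their values were seen, rose from low levels. MUC19 went from 0.101 to 3.65 CPM (adjusted p = 1.04e-06) and MUCL3 from 0.303 to 1.31 (adjusted p = 0.00138). With PF-06873600, 3 of 7 were higher, MUC12 and MUC19 again among them, and 3 lower, beside 28.5% and 27.8% of all genes. In SUM159, 4 of 5 were higher and 0 lower with PF-06873600, beside 38.1% and 35.6% of all genes. Of the 4, MUC22 and OVGP1 likewise had a mean under 10 counts in untreated SUM159 libraries. MCAM rose there from 63.7 to 206 CPM (1.69 ± 0.06, adjusted p = 4.43e-12). MUC15 was found in SUM159 only, at 14.5 and 14.1 CPM in untreated libraries and 13.7 and 11.7 with PF-06873600, and had 0 counts in all 10 A549 libraries.

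Most of the tested genes that secretory cells express with mucins fell in A549. Of 10 tested from a list of 16, 8 fell and 1 rose with palbociclib, 9 fell and 0 rose with indisulam, 8 fell and 1 rose with both drugs, and 7 fell and 2 rose with PF-06873600. Over all genes 7.40%, 17.5%, 30.0% and 27.8% fell in these comparisons. The median log2 fold changes were -1.06, -1.54, -2.09 and -1.18, beside -0.01, 0.08, 0.05 and -0.01 over all genes. FCGBP, an IgG Fc binding protein of mucus, measured 984 and 695 CPM in untreated libraries and 26.7 and 26.5 with both drugs (-4.98 ± 0.18, adjusted p = 8.57e-12). ERN2, a stress sensor of mucus-producing cells, measured 26.2 and 20.5 CPM and then 1.98 and 1.48 (-3.75 ± 0.23, adjusted p = 2.87e-09). AGR2, a disulfide isomerase needed for folding of gel-forming mucins and the most abundant of the list per kilobase in A549, fell from 3343 and 3659 CPM to 620 and 581 (-2.54 ± 0.06, adjusted p = 1.45e-13). FCGBP and ERN2 were named by a rule that asks for no overlap between groups, so their lack of overlap is no further result. LCN2 of the same list, named after its values were seen, measured 95.9 and 92.1 CPM in untreated libraries. It was higher with palbociclib (119 and 119), with both drugs (114 and 105) and with PF-06873600 (197 and 201), and lower with indisulam (77.4 and 78.9).

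TFF1, a trefoil peptide that accompanies mucins, was lower with palbociclib, indisulam and both drugs, and higher with PF-06873600. It measured 5.44 and 5.47 CPM in untreated libraries and 1.41 and 1.34 with palbociclib (-1.98 ± 0.20, adjusted p = 1.46e-05). The levels were 1.73 and 1.78 CPM with indisulam and 1.13 and 1.16 with both drugs, values named after they were seen. With PF-06873600, values named after they were seen, it measured 13.9 and 16.3 CPM (1.48 ± 0.14, adjusted p = 5.09e-07). In SUM159, 5 of the 16 secretory genes could be tested. With PF-06873600, 4 of them were higher and 0 lower, beside 38.1% and 35.6% of all genes. Of these 4, LCN2, ZG16B and TFF2 had a mean under 10 counts in untreated libraries and were tested only through the treated ones, in which they are high, so the count is not support for a rise of the list. SLPI, a protease inhibitor of mucous secretions, rose from 0.543 and 0.877 to 17.7 and 16.5 CPM (4.58 ± 0.20, adjusted p = 4.30e-11).

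**Figure D5:**
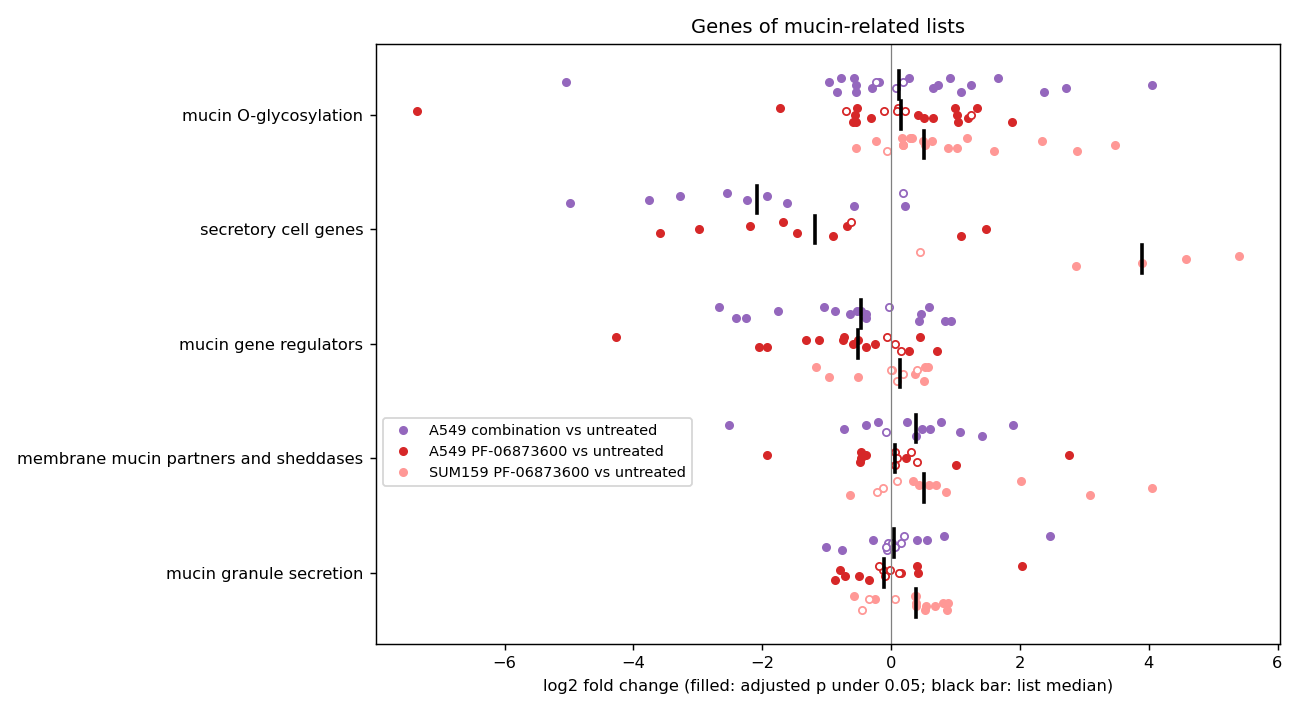
Log2 fold changes of genes in 5 lists related to mucins with both drugs in A549, with PF-06873600 in A549 and with PF-06873600 in SUM159, where each point is a gene, filled for an adjusted p under 0.05, and the black bar is the list median. The secretory cell genes have medians of -2.09 and -1.18 in A549, and of the 5 tested in SUM159, 3 had too few counts in untreated libraries to be tested but for their level in treated ones.

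Of 17 transcription factors and related regulators of mucin genes tested in A549, from a list of 19, 11 fell and 5 rose with both drugs (median log2 fold change -0.46, all genes 0.05, where 30.0% of all genes fell and 35.1% rose). With PF-06873600 11 fell and 3 rose (median -0.51, all genes -0.01, where 27.8% fell and 28.5% rose). With palbociclib 7 fell, 2 rose and 8 did not pass (median -0.28, where 7.40% of all genes fell and 8.30% rose), and with indisulam 7 fell and 5 rose (median -0.14, all genes 0.08, where 17.5% fell and 28.0% rose). SPDEF, the factor that drives goblet cell differentiation, measured 82.6 and 62.3 CPM in untreated libraries and 14.96 and 12.3 with both drugs (-2.41 ± 0.13, adjusted p = 6.91e-10). CREB3L1, a membrane-bound factor of secretory cells, fell from 70.6 and 58.7 CPM to 9.57 and 10.7 with both drugs (-2.67 ± 0.11, adjusted p = 2.61e-11) and to 3.14 and 3.52 with PF-06873600 (-4.27 ± 0.13, adjusted p = 3.75e-12). FOXA3, a forkhead factor of mucous cells, was lower with both drugs than with palbociclib alone (-1.64 ± 0.12, adjusted p = 1.88e-08). HIF1A, the oxygen-regulated factor, was the most abundant of the list per kilobase in both lines. SPDEF and FOXA3 were at or below 0.125 CPM in every SUM159 library, under the level of 3 counts. CREB3L1 was higher in SUM159 than in A549, at 171 and 162 CPM in untreated libraries and 246 and 232 with PF-06873600 (values named after they were seen). In SUM159, 4 of 12 rose and 3 fell with PF-06873600 (all genes 38.1% and 35.6%), with KLF4, a factor of epithelial differentiation, lower (-1.16 ± 0.10, adjusted p = 5.65e-08).

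The enzymes that build O-linked sugar chains on mucins moved both ways in A549. With both drugs 10 of 22 tested rose and 9 fell (45.5% and 40.9%, beside 35.1% and 30.0% of all genes, median log2 fold change 0.13). Of these, GCNT4 (higher) and B3GNT6 (lower) had a mean under 10 counts in the group where they are low, and were tested through libraries in which they are high. GALNT2, which adds the first sugar, rose from 134 to 420 CPM (1.65 ± 0.06, adjusted p = 5.34e-12), and GALNT18 of the same family from 5.82 to 30.3 CPM (2.38 ± 0.11, adjusted p = 8.56e-11). GALNT5 fell with indisulam (-0.98 ± 0.12, adjusted p = 1.69e-05), and ST6GALNAC1, which caps the first sugar with sialic acid, fell with PF-06873600 (-1.72 ± 0.19, adjusted p = 3.23e-06). In that comparison 9 rose and 7 fell, B3GNT6 again among them (40.9% and 31.8%, beside 28.5% and 27.8% of all genes). In SUM159, 15 of 18 rose and 2 fell with PF-06873600 (83.3% and 11.1%, beside 38.1% and 35.6% of all genes, median 0.51). GALNT3 and CHST4, 2 of the 15, had a mean under 10 counts in untreated libraries and were tested through the treated ones. Among the others were GCNT3, which branches the chains (0.891 to 6.63 CPM, 2.88 ± 0.23, adjusted p = 2.85e-08), and GALNT6 (1.60 to 8.09 CPM, 2.34 ± 0.20, adjusted p = 8.06e-08).

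Partners and sheddases of membrane mucins also changed. With both drugs 8 of 13 rose and 4 fell in A549 (61.5% and 30.8%, beside 35.1% and 30.0% of all genes, median log2 fold change 0.39). ERBB3, a growth factor receptor, fell from 266 to 46.4 CPM (-2.52 ± 0.06, adjusted p = 9.94e-14), and EGFR was higher than with palbociclib alone (1.12 ± 0.09, adjusted p = 8.92e-08). MSLN, the binding partner of MUC16, rose from 1.957 to 7.26 CPM (1.89 ± 0.29, adjusted p = 4.20e-05), with PF-06873600 to 13.3 CPM (2.76 ± 0.26, adjusted p = 6.07e-07) and with palbociclib to 4.38 CPM (1.13 ± 0.31, adjusted p = 0.0239). MSLN thus rose in 3 of the 4 treatments in which MUC16 fell, and with indisulam it did not pass (0.08 ± 0.36, adjusted p = 0.879). With PF-06873600, 3 of 13 rose and 5 fell in A549, beside 28.5% and 27.8% of all genes, and 8 of 12 rose and 1 fell in SUM159, beside 38.1% and 35.6%. One of the 8, MSLN, had a mean under 10 counts in untreated SUM159 libraries and was tested through the treated ones. In SUM159 ICAM1, a ligand of MUC1, rose from 13.1 to 216 CPM (4.05 ± 0.07, adjusted p = 2.08e-15) and MMP14, a membrane protease that can shed MUC1, from 36.9 to 314 CPM (3.09 ± 0.06, adjusted p = 1.09e-14).

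Of 14 genes of mucin granule release tested in A549, 4 rose, 3 fell and 7 did not pass with both drugs (28.6% and 21.4%, below the 35.1% and 30.0% of all genes, median log2 fold change 0.04). With PF-06873600 4 rose and 5 fell, beside 28.5% and 27.8% of all genes. UNC13D, a priming factor of exocytosis, rose from 9.63 to 53.4 CPM with both drugs (2.47 ± 0.10, adjusted p = 1.87e-11). RAB3D, a small GTPase of secretory granules, fell from 70.5 to 34.8 CPM (-1.02 ± 0.09, adjusted p = 2.46e-07). VAMP8, the vesicle SNARE of mucin granules and the most abundant of the list per kilobase in A549, did not pass (0.07 ± 0.07, adjusted p = 0.426). In SUM159, 10 of 15 rose with PF-06873600 and 2 fell (66.7% and 13.3%, beside 38.1% and 35.6% of all genes, median 0.39), among them VAMP2 (0.88 ± 0.08, adjusted p = 9.87e-08) and SNAP23 (0.87 ± 0.07, adjusted p = 1.56e-08), both parts of the SNARE machinery.

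Genes with a pattern most like each mucin over the 10 A549 libraries were found by Pearson's r of log2(CPM + 0.5) among 11656 genes, given as a description without a p, since the libraries share their treatments. MUC5B was most like FCGBP (r = 0.998), EIF4EBP1 (0.995) and CACNA1D (0.993). MUC5AC was most like NT5C (0.995), DALRD3 (0.989) and AGR2 (0.989). MUC5AC and MUC5B had an r of 0.981 with each other, the highest of all pairs of mucins. MUC3A was most like ANO10 (0.996), AMTN (0.995) and COL22A1 (0.994), of which AMTN, an enamel protein gene, also went from 0 in untreated cells to 22.5 CPM with both drugs. MUC13 was most like MATN2 (0.977), MUC16 like CD55 (0.955), MUC20 like ZNF407-AS1 (0.966) and MUC1 like REEP4 (0.950).

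Markers of other cell types that moved with the treatments are given beside these results. Of 3 fibroblast markers, 1 (COL1A1, the most abundant) had a mean of at least 1 CPM in A549. Their summed level was 1.90 and 2.2 CPM in untreated A549 libraries, 3.93 and 4.39 with palbociclib, 21.1 and 20.1 with indisulam, 74.3 and 74.3 with both drugs, and 9.88 and 8.35 with PF-06873600, so it was higher where MUC5AC and MUC5B fell. In SUM159, 3 of 3 reached that level, and the sum went from 1699 and 1797 to 4015 and 4176 CPM. The summed level of 6 epithelial markers, led by KRT18 in A549, was 5435 and 4677 CPM in untreated cells and 10547 and 10079 with both drugs. KRT8, KRT18 and KRT19 carry that sum, while EPCAM went from 18.3 and 20.6 to 15.1 and 13.9 CPM and CDH1 from 160.0 and 152 to 130.1 and 126. The sum of 6 mesenchymal markers, of which FN1 was the most abundant in A549, went from 2484 and 2252 to 3738 and 3694 CPM with both drugs. VIM carries most of that rise, from 701 and 628 to 1792 and 1743 CPM, while FN1 went from 1707 and 1544 to 1793 and 1787. In SUM159 the mesenchymal sum went from 7419 and 7854 to 17629 and 17734 CPM with PF-06873600, and the epithelial sum from 755 and 699.6 to 428 and 447. FN1 carries that mesenchymal rise, from 2764 and 3527 to 13680 and 13795 CPM. VIM went from 4318 and 4006 to 3609 and 3610 CPM, SNAI2 and TWIST1 were also lower, and ZEB1 and CDH2 were higher. Of 4 blood cell markers, CD3E and HBB were under 0.25 CPM in every library, and the sum was at most 1.36 CPM in A549. In SUM159 the blood cell sum, nearly all PTPRC, was 9.59 and 10.02 CPM in untreated libraries and 20.4 and 18.1 with PF-06873600. There the sum of 3 endothelial markers, of which PECAM1 was the most abundant, went from 11.04 and 11.6 to 26.9 and 28.98 CPM, so both were higher where MUC1 rose. In A549 the endothelial sum was at most 1.60 CPM. The part of these markers in the mucin changes was not tested.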

How the data were processed

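Polyadenylated RNA was sequenced by the study as single-end 65-base reads from stranded libraries. HISAT2 2.2.1 and HTSeq are named in the submitters' processing notes, with GRCh38. The authors deposited, for each library, whole-number counts per gene, not normalized, with replicates kept apart. Each file has 60683 identifiers and 9 summary lines, left out here. The annotation release and the use of strand in counting are not given in the sources used here. Reads on more than 1 gene (3.55% to 4.21% of gene and ambiguous reads) or of low mapping quality were not counted.

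Symbols and coordinates came from GENCODE 44 on hg38 (60370 identifiers matched). Counts were scaled by library total, after the study's size factor, filtered with filterByExpr and tested with the quasi-likelihood F test of edgeR 4.0.16 in R 4.3.3, with Benjamini-Hochberg adjustment over all genes tested and calls at 0.05. Models covered the 10 A549 libraries (15780 genes), the 4 SUM159 libraries (15055 genes) and all 14 (17279 genes). Standard errors were derived from each log2 fold change and its F statistic. Alternatives were TMM factors, DESeq2 1.42.0, no filter, a mean of at least 50 counts, a replicate block, the compared groups alone and each library left out. Counting intervals are exact conditional intervals on pooled counts at 95%. Chi-square of counts per degree of freedom between replicates ran from 1.61 to 9.57, so no pair was within sampling noise.

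Members and gene lists were chosen with earlier results of these data known. Named genes of a list are the most abundant per kilobase and, per comparison, up to 2 with the largest change among those past the threshold with a mean of at least 5 CPM and no overlap between groups, and exceptions are stated. Some results are not reported here. For each mucin, up to 3 genes most like it were taken among those with at least 5 CPM.

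On simulated data with 200 changed genes, the test of both drugs against untreated A549 called 97% of genes changed 2-fold and 75% of those changed 1.4-fold among 15385, with 6.52% of calls false. For PF-06873600 in SUM159 (14847 genes) the values were 90%, 74% and 1.21%. The simulation gave every gene the same spread, and its changed genes were taken above a minimum count. In the real libraries chi-square per degree of freedom was 9.57 in untreated A549 and 2.22 with both drugs, and 65.2% of genes passed between them. The rates thus hold for the simulated setting only. Other software was scipy 1.17.1, pandas 2.3.3, numpy 2.4.6, matplotlib 3.10.9 and Python 3.11.15.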

Additional observations from a re-analysis of the deposited data

Results flagged for a closer look

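The response to PF-06873600 differed between SUM159 and A549 for each of the 7 mucins by the interaction test (edgeR, adjusted p under the threshold). In the same test 53.0% of the 17279 genes passed. Each difference is given as the log2 response in SUM159 minus that in A549. It was 1.30 for MUC1 and 0.91 for MUC13, the 2 members with at least 20 counts in every library. It was 3.02 for MUC5AC and 2.94 for MUC5B, which fell in A549 and had at most 18 counts in a SUM159 library. It was 4.27 for MUC20, with 4 counts in untreated SUM159 cells and 8 in treated A549 cells. It was 5.24 for MUC16 and -5.07 for MUC3A, whose untreated groups in SUM159 and in A549, respectively, had 0 counts, so that these fitted values depend on the prior count and are not bounds. MUC3A, MUC5B, MUC16 and MUC20 had too few counts to be tested within SUM159, so little can be read from their differences. Groups of 2 libraries are too small for a test of single outlying libraries.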

How the results depend on the processing

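No called mucin reversed its direction under any alternative run. Of the counts of mucins called, 60 under other settings and 99 with a library left out stayed within 1.5 times the reported count, and 4 did not. With no filter on low counts, 2 mucins were called in SUM159 with PF-06873600 in place of 1. Without A549 untreated replicate 1, 5 mucins in place of 3 differed from the sum of the single drugs, without SUM159 untreated replicate 1, 2 were called in SUM159, and without SUM159 untreated replicate 2, 4 in place of 7 differed in response between lines. With 1 library left out, the mucins called were 3 to 5 with palbociclib, 3 to 5 with indisulam, 4 to 6 with both drugs, 4 to 5 against palbociclib alone, 4 to 5 against indisulam alone, 6 to 7 with PF-06873600, 2 to 5 beyond the sum, 1 to 2 in SUM159, 4 to 7 between the responses and 6 to 7 between untreated lines. A lone library left in a group is assumed to vary like the others.

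The replicate block changed no count of mucins called (4 with palbociclib, 4 with indisulam, 6 with both drugs, 6 with PF-06873600, 1 in SUM159). The samples share only a number: deviations of same-numbered libraries correlated at -0.27 for palbociclib and untreated, 0.23 for indisulam and untreated, and -0.24 between the untreated lines. With palbociclib and untreated libraries alone, a block with crossed numbers, added after the data were seen, called 4 mucins and 1114 genes higher and 993 lower, and the uncrossed block called 3 mucins, 630 and 447. Between untreated lines, crossed and uncrossed blocks both called 6 mucins.

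Over all genes, palbociclib gave 1310 higher and 1168 lower, but 960 and 591 with DESeq2, 543 and 406 with the 2 groups alone, 816 and 656 without palbociclib replicate 1, and 779 and 522 without replicate 2. With indisulam the split was 4420 higher and 2757 lower, and 3613 and 3558 with TMM factors. The larger direction turned with TMM factors for both drugs over untreated cells (5544 higher and 4739 lower, then 4908 and 5397), over palbociclib (5279 and 4250, then 4542 and 5067), between untreated lines (7242 and 6365, then 6727 and 6848) and between the responses (4466 and 4695, then 4742 and 4380). Turns under other settings included PF-06873600 in SUM159 (5742 and 5361, then 4502 and 4543 with DESeq2 and 4177 and 4968 with a mean of at least 50 counts). Others were both drugs over indisulam (3479 and 3773, then 2711 and 2483 with DESeq2) and PF-06873600 in A549 (4491 and 4392, then 3679 and 3767 with a mean of at least 50 counts). The median log2 fold change of all genes was 0.02 in SUM159 with PF-06873600 and 0.25 with no filter. Depth limits MUC20 in both lines and MUC3A, MUC5B and MUC16 in SUM159.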
